A study of Mus musculus with 8 samples.

Results

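Mitochondria carry ribosomes of their own, the mitoribosomes, which translate the few proteins encoded by mitochondrial DNA, all of them core subunits of the respiratory chain and ATP synthase. The proteins of the mitoribosome are encoded in the nucleus, made on cytosolic ribosomes and imported. The large subunit forms the peptide bonds and the small subunit reads the mRNA. Some subunits have a counterpart in bacteria and others exist only in mitochondria. The genes described here are those with symbols of the form Mrpl or Mrps, a number and at most 1 further letter, and with at least 1 TPM (transcripts per 1000000, a level already divided by transcript length) in at least 2 of the 8 libraries. Of 24946 gene symbols, 78 fit this rule, and each of the 78 stood above 1 TPM in all 8 libraries, so none lay just outside the level rule and the lowest value, 9.58 TPM for Mrpl19 in 1 restrained IP library, lay well inside it. The large subunit takes 51 of them and the small subunit 26. Mrps36, the remaining one, keeps the name although its product belongs to the 2-oxoglutarate dehydrogenase complex of the citric acid cycle. By current structures the products of Mrps18a and Mrps30 sit in the large subunit and were counted there.

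The data are PhosphoTrap profiles of the lateral septum of adult C57Bl6J mice. The method uses 4 ug of antibody to pull down ribosomes whose protein S6 is phosphorylated (pS6), which marks active neurons, and compares their RNA (IP) with RNA of the same lysate (input). Restraint (RS) lasted 1 h and took place in a flexible cone. Per the labels these mice were killed 1 h after it, whereas the study's methods give no such interval. Naive mice stayed in the home cage. Each library held the dissected septa of 4 to 6 mice, and all mice were wild type. Mice of both sexes were used in the study, and the sex in each pool was not given in the sources used here. The groups are RS IP, naive IP, RS input and naive input, with 2 pools each. IP and input of the same number and condition come from the same pool. The labels speak of 3 pools a group, of which 2 are analysed here. The p-values rest on the spread between pools of a group, taken jointly over the 4 groups and drawn toward that of genes of similar level. In bulk tissue, fewer cells of a type and less RNA per cell cannot be told apart.

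Markers of other tissues differed between the groups. Genes of GABAergic septal neurons, the labelled tissue's main cell type, summed to 1156 to 1281 TPM in IP and 900.0 to 978 TPM in input over 9 genes, with none at 0. Gene by gene they were divided. Their log2 changes of IP over input ran from −1.28 to 1.38 in RS mice (median 0.03) and from −0.97 to 0.64 in naive mice (median 0.10). Choroid plexus genes (8) summed to 2074 and 2087 TPM in RS IP against 43.2 and 41.3 TPM in naive IP, and to 286 and 337 TPM in RS input against 21.6 and 23.7 TPM in naive input. Ttr, the transthyretin gene, made up most of the sums in RS mice, at a mean of 2020 TPM in RS IP against 29.1 TPM in naive IP and 284 TPM in RS input against 8.47 TPM in naive input. The median gene of the list stood at 5.56 and 5.36 TPM in RS IP against 1.74 and 1.04 TPM in naive IP, and the median log2 change over the 8 genes was 1.08 in IP and 0.79 in input. Oligodendrocyte genes (10) summed to 2588 to 2785 TPM in the 4 IP libraries, and to 8803 and 8206 TPM in RS input against 6932 and 6846 TPM in naive input. Blood genes (5) summed to 4455 to 5316 TPM in IP and 726 to 826 TPM in input. The part of these differences in the results below was not tested. The kit does not mark strand, and 33 of the 78 genes share exon bases with another annotated gene, 28 of them with one on the other strand, so that reads of both genes cannot be told apart there. Among the genes named below, these include Mrpl9, Mrpl10, Mrpl12, Mrpl14, Mrpl18, Mrpl19, Mrpl21, Mrpl27, Mrpl33, Mrpl36, Mrpl43, Mrpl46, Mrpl47, Mrpl49, Mrpl51, Mrpl53 and Mrpl58. They also include Mrps6, Mrps7, Mrps11, Mrps18b, Mrps18c, Mrps26, Mrps27, Mrps30 and Mrps34.

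Mitoribosome mRNAs were abundant in every library and unequal among themselves. Together the 78 genes took 1.41% and 1.40% of all TPM in RS IP, 1.45% and 1.45% in naive IP, 0.887% and 0.949% in RS input and 1.13% and 1.12% in naive input. The median member stood at 150 and 155 TPM in RS IP, 155 and 155 TPM in naive IP, 94.2 and 103 TPM in RS input and 120 and 126 TPM in naive input, where the median of all 14365 genes kept lay between 9.75 and 14.9 TPM. The share and the median were lowest in the RS inputs, and the groups of IP and input libraries did not overlap.

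**Figure D1:**
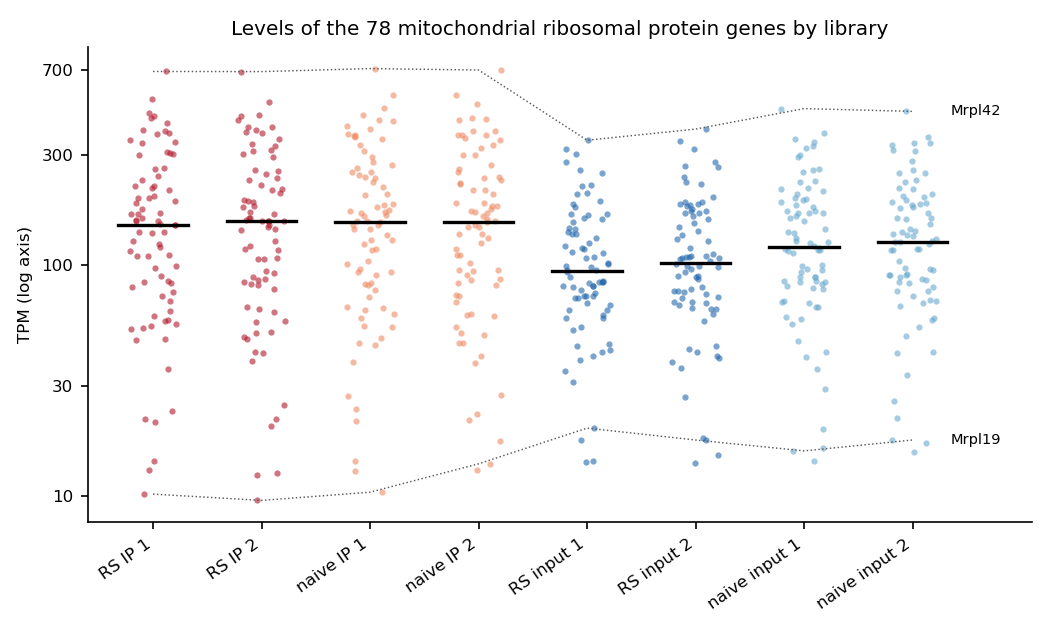
TPM (log axis) of each of the 78 mitochondrial ribosomal protein genes in the 8 libraries, 1 point a gene; black lines are medians and dotted lines follow Mrpl42 and Mrpl19. Medians were 150 to 155 TPM in the IP libraries and 94.2 to 126 TPM in the inputs, and points were more widely spread in IP.

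Although an assembled mitoribosome holds nearly all of its proteins once, their mRNAs covered a wide range. The gene at the top was Mrpl42, a mitochondria-specific protein of the large subunit, in all 8 libraries. It stood at 691 and 690 TPM in RS IP, 711 and 701 TPM in naive IP, 348 and 389 TPM in RS input and 477 and 464 TPM in naive input. The gene at the bottom was Mrpl19, Mrps31 or Mrpl1, depending on the library. The highest member exceeded the lowest 68.0- and 72.1-fold in RS IP, 68.2- and 53.8-fold in naive IP, 24.6- and 28.0-fold in RS input and 33.5- and 29.7-fold in naive input. The standard deviation of the log2 levels over the members was 1.29 to 1.32 in the 4 IP libraries and 0.98 to 1.07 in the 4 inputs, so the IP libraries had the wider spread.

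After Mrpl42 the order of the leading genes depended on the RNA fraction. In RS IP it was followed by Mrpl30 (518 ± 11.0 TPM), Mrpl12 (450.0 ± 7.23), Mrpl55 (447 ± 3.06) and Mrpl20 (430.0 ± 4.59; SD, n = 2 pools throughout). Mrpl12 and Mrpl55 did not differ beyond their spread. In naive IP it was followed by Mrpl30 (545 ± 0.844 TPM), Mrpl55 (488 ± 12.2), Mrpl20 (438 ± 14.8) and Mrpl12 (429 ± 5.32), the last of these within the spread of Mrpl20. In RS input Mrpl28 (324 ± 29.8 TPM) and Mrpl12 (318 ± 0.446) came next and did not differ beyond their spread. In naive input Mrpl12 (367 ± 10.2 TPM) and Mrpl27 (345 ± 10.6) came next. Mrpl12 forms the flexible stalk of the large subunit that recruits translation factors, and it is held there by Mrpl10. Across the 78 genes the rank order of levels correlated with rho of 0.985 to 0.996 between pools of 1 group and 0.827 to 0.941 between IP and input libraries, a description over genes, which share library and transcript length.

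Many of these genes share a start region with a neighbour. Of the 78, 33 (42.3%) have a protein-coding gene on the other strand whose annotated start lies within 1000 bases to either side, against 15.4% of the 13309 protein-coding genes kept. Several of these neighbours also act in mitochondria: Mrpl36 lies beside Ndufs6 and Mrpl47 beside Ndufb5, both subunits of complex I, Mrps12 beside the mitochondrial seryl-tRNA synthetase Sars2, Mrpl43 beside the mtDNA helicase Twnk, and Mrpl46 and Mrps11 beside each other. Pairs that overlap at their starts were counted along with pairs that run apart. Among the pairs named here, Mrpl36, Mrpl43, Mrpl46 and Mrpl47 share exon bases with their neighbour. Of the members, 69 had a window in the RefSeq promoter table (GRCm38.p6), which runs from 250 bases before to 50 after the start. The ETS motif CCGGAAG, searched on both strands, was found in 26 of the 69 (37.7%), against 12.8% of 18203 genes with a window. Unlike the genes kept, to which all members belong, these 18203 include genes below the level rule. The core of the NRF1 motif, GCATGCG, named for a factor known for regulating nuclear genes of mitochondria, was found in 8 (11.6%, against 4.99%). The YY1 motif AAGATGG was in 13 (18.8%, against 7.27%), and the TATA box TATAAA in 5 (7.25%, against 14.2%). Matches of different motifs could overlap. A match describes the letters only.

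The 150 bases before the start site follow for 6 members. Mrpl33, Mrpl20 and Mrpl53 are shown because they had some of the largest changes described below, Mrps27 because it moved the other way, and Mrps11 and Mrpl46 because their windows overlap on opposite strands. Capitals mark the motifs above in either orientation. Mrpl33 (chr5:31613801-31613950, plus strand) holds the NRF1 core close to the start. Mrpl20 (chr4:155802728-155802877, plus strand) holds none of the 4 motifs. Mrpl53 (chr6:83108958-83109107, plus strand) holds the ETS motif in both orientations, and Mrps27 (chr13:99344636-99344785, plus strand) holds it once. Mrps11 (chr7:78782981-78783130, plus strand) holds the YY1 motif and Mrpl46 (chr7:78783090-78783239, minus strand) the letters of the TATA box far from the start.
Mrpl33: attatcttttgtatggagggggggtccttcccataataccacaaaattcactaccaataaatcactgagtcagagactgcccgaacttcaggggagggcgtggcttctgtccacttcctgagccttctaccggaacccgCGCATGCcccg
Mrpl20: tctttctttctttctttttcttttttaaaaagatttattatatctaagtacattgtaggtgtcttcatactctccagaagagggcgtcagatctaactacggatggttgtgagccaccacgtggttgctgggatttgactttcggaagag
Mrpl53: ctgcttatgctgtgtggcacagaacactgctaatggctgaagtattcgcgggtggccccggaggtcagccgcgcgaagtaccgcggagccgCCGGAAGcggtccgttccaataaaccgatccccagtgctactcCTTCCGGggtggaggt
Mrps27: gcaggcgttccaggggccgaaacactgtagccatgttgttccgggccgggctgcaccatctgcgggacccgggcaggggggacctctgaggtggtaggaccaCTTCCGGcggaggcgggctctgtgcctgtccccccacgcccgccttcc
Mrps11: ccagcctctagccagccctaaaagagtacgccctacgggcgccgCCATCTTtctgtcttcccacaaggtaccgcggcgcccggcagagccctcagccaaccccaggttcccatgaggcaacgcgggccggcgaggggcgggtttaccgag
Mrpl46: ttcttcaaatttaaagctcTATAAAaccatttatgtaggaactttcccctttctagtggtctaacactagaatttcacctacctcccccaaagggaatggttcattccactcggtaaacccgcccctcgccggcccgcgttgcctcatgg

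The first comparison asked how mitoribosome mRNAs stood in pS6-bound RNA relative to the tissue around it. In both conditions most of them were higher in IP than in input. In RS mice 53 of the 78 were called higher and 9 lower, where 17.8% of all genes tested were called higher and 54.9% lower. In naive mice 45 were called higher and 12 lower, where 17.4% of all genes were higher and 49.2% lower. Without naive input replicate 2, 7 were called lower in naive mice. The median log2 change over the members was 0.51 in RS mice and 0.28 in naive mice, against medians over all genes of −0.42 and −0.32. A call is an adjusted p under 0.05 in limma on log2(TPM + 1), with Benjamini-Hochberg adjustment over the 14365 genes, and every fold and log2 change below is on that scale, which understates the change of low genes. Changes of at least 2-fold were seen for 10 members in RS mice and 2 in naive mice, all of them higher, where 5.30% and 3.32% of all genes were called higher by as much. Both IP libraries lay above both inputs for 56 members and below them for 14 in RS mice, where 23.2% and 62.5% of all genes did so. In naive mice these counts were 53 and 18, where 24.3% and 59.5% of all genes did so.

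Mrpl33, a small protein of the large subunit with a bacterial counterpart, had the largest change in RS mice. It stood at 342 and 354 TPM in RS IP against 85.0 and 101 TPM in RS input, and at 354 and 356 TPM in naive IP against 161 and 144 TPM in naive input. The IP libraries lay far above the inputs with no overlap, and the RS inputs were the lowest of all. Mrpl33 was higher 3.72-fold in RS mice (log2 1.89 ± 0.09 SE, adjusted p = 1.58e-06) and 2.31-fold in naive mice (log2 1.21 ± 0.09 SE, adjusted p = 1.61e-05, limma). Its exons overlap those of Gm43809 on the same strand, so part of its reads may belong there.

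Mrpl20, whose bacterial counterpart binds early in the assembly of the large subunit, came next. It stood at 433 and 427 TPM in RS IP against 121 and 135 TPM in RS input, and at 449 and 428 TPM in naive IP against 188 and 188 TPM in naive input. The IP levels of both conditions overlapped each other, and the inputs lay in 2 separate steps below them. The gene was higher 3.35-fold in RS mice (log2 1.74 ± 0.06 SE, adjusted p = 6.48e-07) and 2.32-fold in naive mice (log2 1.22 ± 0.06 SE, adjusted p = 4.59e-06, limma), and it shares no exon bases with another gene.

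The other members at the top of both comparisons were further proteins of the large subunit. Mrpl53, specific to mitochondria, stood at 212 and 211 TPM in RS IP against 78.1 and 80.4 TPM in RS input, and at 229 and 228 TPM in naive IP against 121 and 130 TPM in naive input. These groups did not overlap, and the change was log2 1.40 ± 0.05 in RS mice and 0.86 ± 0.05 in naive mice (adjusted p = 9.39e-07 and 9.23e-06, limma). Mrpl52 and Mrpl54, also without a bacterial counterpart, were higher 2.78- and 2.63-fold in RS mice and 1.85- and 1.76-fold in naive mice. Mrpl30 and Mrpl55, which have one, were higher 2.40- and 2.21-fold in RS mice and 1.89- and 1.88-fold in naive mice. From the small subunit, Mrps21 was higher 2.38-fold in RS mice, and Mrps18c 1.97-fold in RS and 1.67-fold in naive mice.

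**Figure D2:**
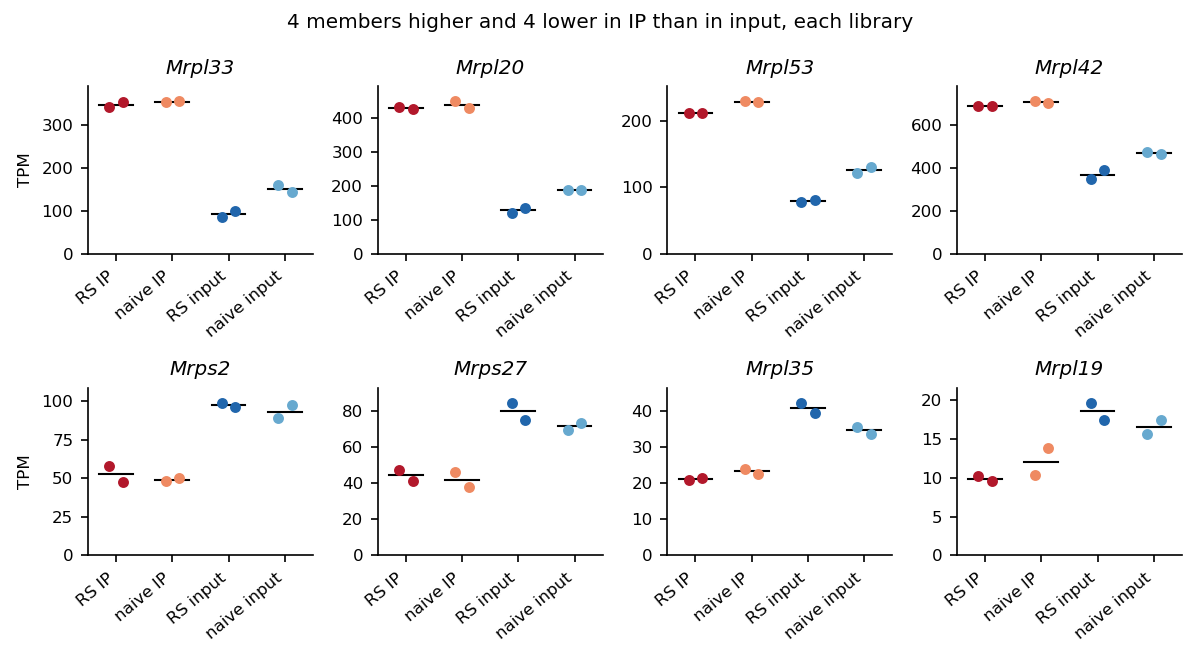
TPM of 8 members in each library (points, 2 pools a group) with the group mean (line); the y axis starts at 0 and differs between panels. The upper 4 genes lay higher in IP than in input and were lowest in RS input, and the lower 4 lay lower in IP.

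A smaller set went the other way. Mrps2, a small-subunit protein with a bacterial counterpart, stood at 57.8 and 47.8 TPM in RS IP against 98.8 and 95.9 TPM in RS input, and at 48.4 and 49.8 TPM in naive IP against 88.8 and 97.3 TPM in naive input. All IP libraries lay below all inputs, and the gene was lower 1.84-fold in RS mice (log2 −0.88 ± 0.09 SE, adjusted p = 6.19e-05) and 1.88-fold in naive mice (log2 −0.91 ± 0.09 SE, adjusted p = 8.01e-05, limma). Mrps27, a mitochondria-specific small-subunit protein of the RNA-binding pentatricopeptide repeat family, stood at 47.3 and 41.5 TPM in RS IP against 84.6 and 75.3 TPM in RS input. In naive mice it stood at 46.0 and 37.7 TPM in IP against 69.6 and 73.6 TPM in input. The groups did not overlap, and the fold was 1.78 lower in RS mice and 1.70 lower in naive mice (adjusted p = 0.000214 and 0.00047).

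Mrpl35, a large-subunit protein with a bacterial counterpart, stood at 20.9 and 21.5 TPM in RS IP against 42.2 and 39.5 TPM in RS input, and at 23.8 and 22.6 TPM in naive IP against 35.6 and 33.6 TPM in naive input. It was lower 1.89-fold in RS mice and 1.47-fold in naive mice, with no overlap of the groups. Mrpl19, at 10.2 and 9.58 TPM in RS IP against 19.7 and 17.5 TPM in RS input and at 10.4 and 13.8 TPM in naive IP against 15.7 and 17.5 TPM in naive input, was lower 1.81- and 1.35-fold. Mrpl9, Mrpl10, Mrpl38 and Mrpl45 were also called lower in both conditions. For Mrpl10 this direction depended on the scaling in RS mice, with a log2 change of −0.23 as given and of 0.28 with median-of-ratios scaling, and Mrpl9 and Mrpl38 also turned positive there. Mrpl45 lies at the exit of the peptide tunnel.

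Set side by side, 44 members were called higher in both conditions and 8 lower in both. The share of all genes called alike in both was not counted. It cannot exceed 17.4% for higher and 49.2% for lower calls, the shares in naive mice alone. In RS mice alone 9 members were called higher, among them Mrps7, Mrps9, Mrps33 and Mrps18a, and Mrps30 was called lower (adjusted p = 0.0404, and 0.0676 with the pool as a block). In naive mice alone Mrpl2 was called higher, and Mrpl49, Mrps5, Mrps22 and Mrps31 lower. Being called in 1 condition does not show that the conditions differ, which is tested further on. Calls in neither condition were made for 11, among them Mrpl1, Mrpl37, Mrpl46 and Mrps18b. The 3 Mrps18 paralogs, all related to the same bacterial protein, had different values. In RS mice the log2 change was 0.42 ± 0.06 for Mrps18a of the large subunit (adjusted p = 0.000361), 0.11 ± 0.09 for Mrps18b (adjusted p = 0.308) and 0.98 ± 0.08 for Mrps18c (adjusted p = 1.94e-05, limma). In naive mice it was 0.15 ± 0.06 (adjusted p = 0.0576, and 0.0324 with the pool as a block), −0.19 ± 0.09 (adjusted p = 0.0911) and 0.74 ± 0.08 (adjusted p = 0.00013). The differences between paralogs were not tested.

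**Figure D3:**
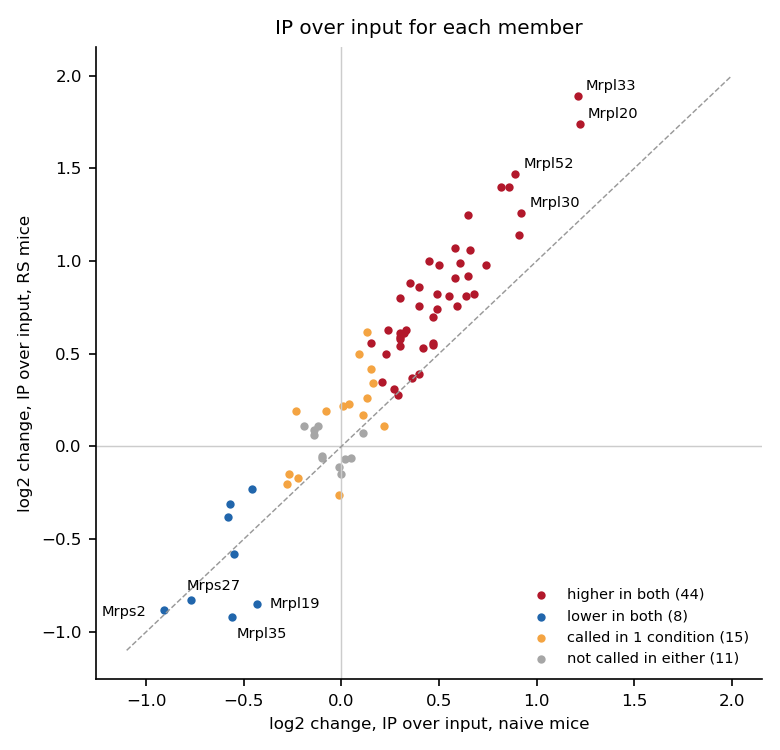
log2 change of IP over input in RS mice (y axis) and naive mice (x axis) for the 78 members, coloured by call; the dashed line marks equal changes. In both conditions 44 members were called higher and 8 lower, and most points with a positive change lie above the line. The share of all genes called alike in both conditions was not counted. The axes share no library.

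Both subunits took part. In RS mice 35 of 51 large-subunit genes were called higher and 7 lower (median log2 0.50), against 17 and 2 of 26 small-subunit genes (median 0.60). In naive mice the counts were 31 and 7 for the large subunit (median 0.29) and 13 and 5 for the small subunit (median 0.19). Of 48 members with a bacterial counterpart, 37 were higher and 5 lower in RS mice (median 0.56), against 15 and 4 of 29 mitochondria-specific members (median 0.26). In naive mice these counts were 32 and 6 (median 0.31), against 12 and 6 (median 0.13). Among the 45 members that share no exon bases with another gene, 30 were higher and 4 lower in RS mice and 23 and 7 in naive mice, with medians of 0.42 and 0.22. Of all genes, 17.8% were called higher and 54.9% lower in RS mice, and 17.4% and 49.2% in naive mice. Differences between these classes of members were not tested. The classes were not matched for transcript length, which moved with the changes.

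Transcript length moved with these changes, in the members and in all genes. Each gene was given its longest protein-coding GENCODE transcript with a RefSeq match where there was one, which need not be the form expressed. For some members this length exceeds the RefSeq gene itself, such as Mrps26 (4278 nucleotides, chr2:130563757-130565394) and Mrpl51 (3427 nucleotides, chr6:125192200-125194392). Such members may stand in too long a class, and the part of this in the values below was not tested. The members' transcripts had a median length of 1253 nucleotides, against 2858 for all genes kept, and only 13.6% of genes have one as short as the members' median. In RS mice the log2 change of IP over input correlated with log2 length with Pearson's r of −0.57 over the 78 members and −0.55 over 14239 genes, and in naive mice with −0.48 and −0.41. Genes in 1 library share its RNA quality and amplification, so these values are descriptions. The shortest members, 26 genes of 418 to 1031 nucleotides, had 25 called higher and none lower in RS mice and a median of 0.95, where all genes of that length had a median of 0.74. In naive mice these medians were 0.60 and 0.44. The share of all genes called within a length class was not counted, so calls by length, here and below, lack that background. The 26 of 1056 to 1764 nucleotides had a median of 0.18 in RS mice against 0.07 for all genes of that length, and of 0.11 in naive mice against 0.02.

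The members with the longest annotated transcripts lay further from other genes of that annotated length. These 26 genes of 1849 to 7300 nucleotides had a median of 0.24 in RS mice, where all genes of that length had −0.58, and of 0.07 in naive mice, where all had −0.44. In RS mice 15 of them were called higher and 6 lower. Within length classes, 53 members lay above the median of all genes in RS mice and 25 below it, at a median distance of 0.30, and in naive mice 55 lay above and 23 below, at a median distance of 0.19. With length and GC content removed from the log2 values of all genes, 45 members were called higher and 15 lower in RS mice, and 38 higher and 14 lower in naive mice, with medians of 0.29 and 0.17. Of the 62 members called in RS mice 6 then had the opposite sign, 4 of them with a call (Mrpl22, Mrpl27, Mrps18a and Mrps30). Of the 57 called in naive mice 8 had the opposite sign, 2 of them with a call (Mrpl27 and Mrps5). All genes were then called higher in 27.5% and lower in 30.6% in RS mice, and higher in 25.6% and lower in 29.4% in naive mice.

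**Figure D4:**
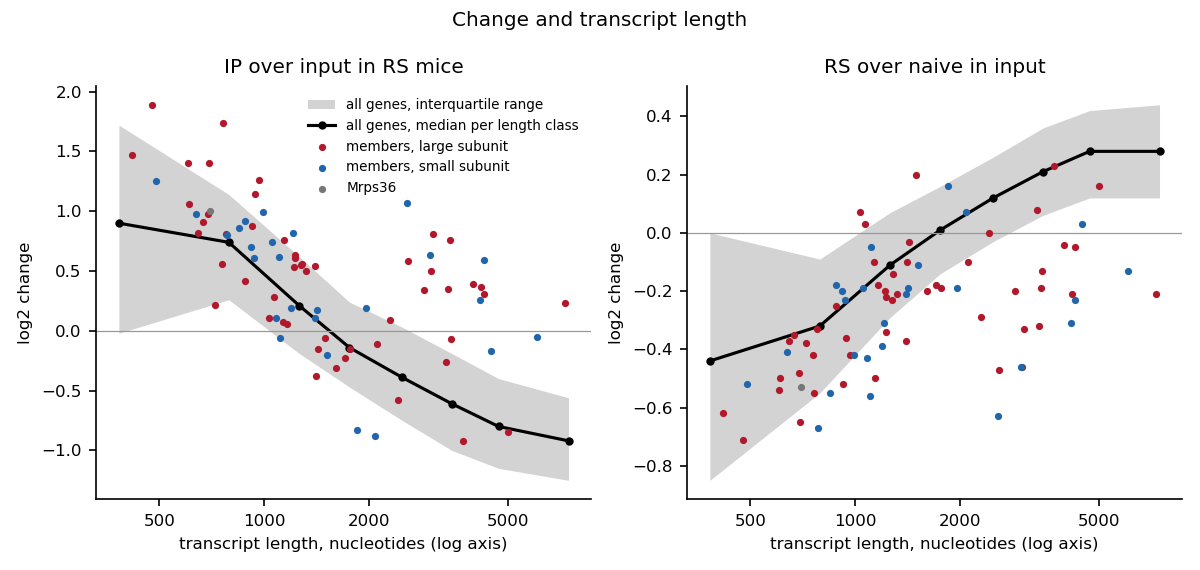
log2 change of IP over input in RS mice (left) and of RS over naive in input (right) against transcript length (nucleotides, log axis) for the members (points, by subunit) and all genes (line: median per length class; band: interquartile range). Changes of all genes moved with length in both. Of the 26 longest members, 21 lay above the median of their length class at left and 5 below it (among them Mrps2, Mrps27 and Mrpl35), and at right 24 lay below it and 2 above.

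The scale of the values also set the split of calls. TPM fixes the total of each library, and all genes had a median log2 change below 0 in IP over input. With median-of-ratios scaling, which moved the median of all genes by over 0.1 on the log2 scale to 0.01 in RS mice and 0.00 in naive mice, 72 members were called higher and 4 lower in RS mice and 64 and 3 in naive mice. All genes were then called higher in 33.4% and lower in 31.2% in RS mice, and higher in 30.9% and lower in 28.7% in naive mice. The members' medians were 1.02 and 0.66. Of the members called lower, 4 turned positive under that scaling in RS mice, namely Mrpl10 (0.28), Mrpl9 (0.20), Mrps30 (0.23) and Mrpl38 (0.12), and the first 3 of these were called higher. In naive mice 4 turned positive, namely Mrps5 (0.16), Mrps22 (0.15), Mrpl49 (0.11) and Mrps31 (0.08), and none of them was called.

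Other parts of the machinery are read against the shares of all genes called, 17.8% higher and 54.9% lower in RS mice and 17.4% and 49.2% in naive mice. Mitochondrial aminoacyl-tRNA synthetases, which charge the tRNAs used by the mitoribosome, had 2 of 17 called higher and 10 lower in RS mice (11.8% and 58.8%, median −0.46) and 3 and 8 in naive mice (17.6% and 47.1%, median −0.39). Translation factors and mRNA partners had 2 of 14 higher and 7 lower in RS mice (14.3% and 50.0%, median −0.20) and 1 and 6 in naive mice (7.14% and 42.9%, median −0.21). Among them, Tufm, the elongation factor that delivers tRNAs, was at 130.0 TPM in RS IP against 163 TPM in RS input (adjusted p = 0.00353). Slirp, which with Lrpprc protects mitochondrial mRNAs, was at 568 TPM in RS IP against 142 TPM in RS input (log2 2.00 ± 0.11, adjusted p = 2.37e-06), whereas Lrpprc was at 9.96 against 15.2 TPM (log2 −0.57 ± 0.10, adjusted p = 0.00103). Assembly and rRNA modification factors had 5 of 22 higher and 14 lower in RS mice (22.7% and 63.6%, median −0.42) and 4 and 7 in naive mice (18.2% and 31.8%, median −0.22). The medians over all genes were −0.42 and −0.32, and a difference of these lists from all genes was not tested.

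Subunits whose symbols fall outside the rule were likewise divided. Of 5 that were measured, Chchd1 and Aurkaip1, small proteins of the small subunit, were higher in IP in both conditions, Chchd1 with 222 TPM in RS IP against 80.7 TPM in RS input (log2 1.46 ± 0.08) and Aurkaip1 with 259 against 152 TPM (log2 0.76 ± 0.06). Ptcd3, a pentatricopeptide repeat protein of the small subunit like Mrps27, was lower with 25.0 TPM in RS IP against 62.5 TPM in RS input (log2 −1.29 ± 0.09, adjusted p = 5.59e-06). The GTP-binding subunit Dap3 was lower at 32.1 against 40.2 TPM (log2 −0.32 ± 0.07, adjusted p = 0.00277). Gadd45gip1 was not called, at 70.6 against 68.7 TPM (log2 0.04 ± 0.07, adjusted p = 0.631).

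The lists nearest in kind moved further in the same direction. Of 83 cytosolic ribosomal protein genes, 72 were called higher and 2 lower in RS mice (median 1.04) and 56 and 7 in naive mice (median 0.44). Of 73 nuclear genes of the respiratory chain and ATP synthase, 60 were higher and 10 lower in RS mice (median 1.09) and 56 and 11 in naive mice (median 0.65). Cytosolic ribosomal protein transcripts are shorter still, with a median length of 833 nucleotides. These lists were described by counts and medians, and the difference between lists was not tested.

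**Figure D5:**
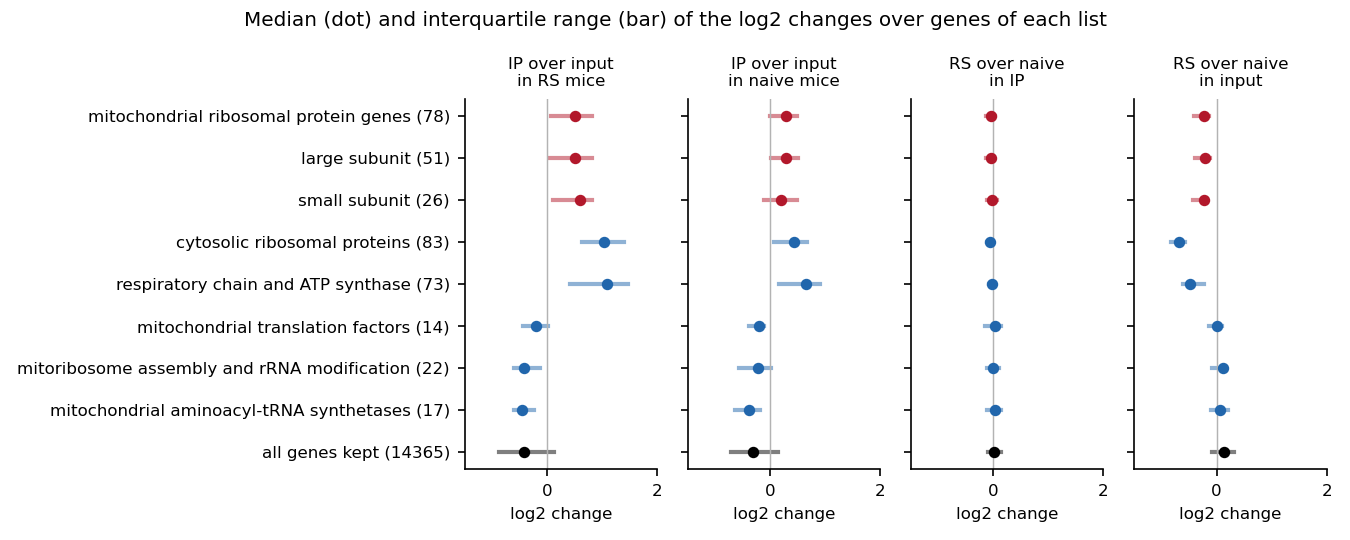
Median (dot) and interquartile range (bar) of the log2 changes over the genes of each list in 4 comparisons, with the number of genes tested in parentheses. Mitoribosome genes had medians of 0.51 and 0.28 for IP over input in RS and naive mice, −0.04 for RS over naive in IP and −0.23 for RS over naive in input.

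The next question was whether restraint changed these mRNAs. In pS6-bound RNA no member was called in either direction, where 1.98% of all genes were called higher and 0.327% lower by limma. The median log2 change was −0.04, the changes lay between −0.26 and 0.10, and the smallest adjusted p over the members was 0.112. At an unadjusted p under 0.05 in limma, 13 members had lower and none had higher values in RS IP. Of all 14365 genes, 886 were lower and 1451 higher at that threshold. Both RS IP libraries lay below both naive IP libraries for 27 members, where 21.2% of all genes did so, and above them for 6, where 25.1% did. Mrpl42 stood at 691 and 690 TPM in RS IP against 711 and 701 TPM in naive IP (log2 −0.03 ± 0.06, adjusted p = 0.855). Mrpl12 stood at 455 and 445 TPM in RS IP against 425 and 433 TPM in naive IP, groups that did not overlap (log2 0.07 ± 0.04, adjusted p = 0.5). A count of 0 calls does not show that the levels were equal. None of the alternatives run gave a call in this comparison.

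In the input the members were lower after restraint. Of 78, 45 were called lower and 1 higher, where 8.21% of all genes were called lower and 20.3% higher. The median log2 change was −0.23 over the members and 0.13 over all genes. Both RS inputs lay below both naive inputs for 63 members and above them for 5, where 19.3% of all genes lay below and 48.8% above. In the same libraries the oligodendrocyte and choroid plexus genes summed higher in RS input, with 8803 and 8206 against 6932 and 6846 TPM and 286 and 337 against 21.6 and 23.7 TPM. Of 10 oligodendrocyte genes 7 were called higher and 1 lower, with log2 changes from −0.39 to 0.58. Of 8 choroid plexus genes 5 were called higher and 0 lower. Astrocyte genes (9) also summed higher in RS input, with 1871 and 1797 against 1620 and 1598 TPM, where 6 were called higher and 1 lower. They summed higher in RS IP too, with 1954 and 1908 against 1512 and 1545 TPM. Genes of GABAergic septal neurons (9) summed lower in RS input, with 900.0 and 935 against 967 and 978 TPM. Gene by gene 4 of them rose and 5 fell, with 1 called higher and 2 lower. Meningeal fibroblast genes (8) summed lower in RS input, with 1139 and 1212 against 1920 and 1914 TPM, as did endothelial genes (7), with 14.2 and 10.1 against 29.8 and 27.0 TPM. The level rule kept 7 of the meningeal and 3 of the endothelial genes, of which 1 and 2 were called lower. The median endothelial gene stood near the floor, at 0.861 and 0.688 TPM in RS input against 1.55 and 0.884 TPM in naive input. Whether tissue of this kind in the dissected septa bears on the members' values was not tested.

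The genes with the largest changes were often those named above. Mrpl33 was lower 1.64-fold (log2 −0.71 ± 0.09 SE, adjusted p = 0.00186), and Mrpl20 1.47-fold (log2 −0.55 ± 0.06, adjusted p = 0.00149), with the values given beside the IP comparison. Mrps28, a small-subunit protein, stood at 67.5 and 78.6 TPM in RS input against 116 and 116 TPM in naive input, groups that did not overlap (log2 −0.67 ± 0.10, adjusted p = 0.00303). Mrps16, a small-subunit protein with a bacterial counterpart, stood at 95.6 and 108 TPM in RS input against 155 and 160 TPM in naive input. Its RS values lay well below both naive values (log2 −0.63 ± 0.06, adjusted p = 0.00126). Mrpl53 was lower 1.57-fold, Mrpl52 1.54-fold, Mrps33 1.48-fold and Mrps6 1.47-fold.

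Mrps6 shares exon bases on its own strand with Slc5a3, a myo-inositol transporter gene, so its reads are uncertain. Mrpl37, a mitochondria-specific protein of the large subunit, was the 1 member called higher, at 113 ± 1.38 TPM in RS input against 97.8 ± 3.73 TPM in naive input (SD, n = 2 pools), groups that did not overlap (log2 0.20 ± 0.05, adjusted p = 0.0268). That call was lost when any of the 4 input libraries was left out and with median-of-ratios scaling. Mrpl58, a peptidyl-tRNA hydrolase of the large subunit that frees stalled mitoribosomes, stood at 113 and 130.0 TPM in RS input against 168 and 168 TPM in naive input, with no overlap (log2 −0.47 ± 0.07, adjusted p = 0.00318). All 3 Mrps18 paralogs were lower, by log2 −0.25 ± 0.06 for Mrps18a, −0.43 ± 0.09 for Mrps18b and −0.41 ± 0.08 for Mrps18c (adjusted p = 0.0179, 0.0115 and 0.0103). Of the large subunit 29 genes were lower and of the small subunit 15, and Mrps36 was the remaining one. Mrps36 stood at 140.0 and 159 TPM in RS input against 216 and 216 TPM in naive input (log2 −0.53 ± 0.09, adjusted p = 0.00476).

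Length moved with this comparison too, with r of 0.52 over the members and 0.46 over all genes between log2 length and log2 change. The 26 shortest members had 23 called lower and a median of −0.42, where all genes of that length had −0.33. The 26 longest had 10 called lower and a median of −0.19, where all genes of that length had 0.20. The limits on annotated lengths and on calls by length given above hold here too. Within length classes 65 members lay below the median of all genes and 13 above it, at a median distance of −0.18. With length and GC content removed, 28 members were called lower and 3 higher, where 6.51% of all genes were lower and 5.97% higher. Of the 46 calls 22 kept both call and direction, and 2 (Mrpl42 and Mrps34) turned in sign to values near 0. With median-of-ratios scaling 59 were lower and 0 higher, where 12.3% of all genes were lower and 7.92% higher. Without naive input replicate 1, 25 were called lower. The respiratory chain list had 58 of 73 lower and 5 higher in the same comparison, the cytosolic ribosomal proteins 77 of 83 lower and none higher, and the mitochondrial aminoacyl-tRNA synthetases 1 of 17 lower.

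The last comparison asked whether the ratio of IP over input differed between RS and naive mice, by the interaction term of the same model. It was called higher in RS mice for 15 members and lower for none, where 3.29% of all genes were higher and 3.46% lower. The median over the members was 0.24, against −0.11 over all genes, and 65 of 78 values were above 0. The 15 were Mrpl12, Mrpl14, Mrpl20, Mrpl21, Mrpl27, Mrpl30, Mrpl33, Mrpl34, Mrpl53, Mrps6, Mrps7, Mrps16, Mrps21, Mrps33 and Mrps36. Mrpl33 had an interaction of log2 0.68 ± 0.12 (adjusted p = 0.026) and Mrpl53 of 0.54 ± 0.08 (adjusted p = 0.0173). All 15 were called lower in RS input, and none was called in IP. Since this term combines the preceding comparisons, it is no separate support for them.

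These 15 calls were not stable. With the pool as a block, which the design allows because IP and input of 1 number share a pool, no member was called, where 0.355% of all genes were higher. None was called either when any 1 of the 4 IP libraries or either naive input was left out, and 8 and 24 were called without RS input replicate 1 and replicate 2. With length and GC content removed 4 were called, and without a filter on low values 2. With median-of-ratios scaling 23 were called. The 26 shortest members had 10 of the 15 calls and a median of 0.39, where all genes of that length had 0.31, and the 26 longest had 2 calls and a median of 0.09, where all had −0.17.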

How the data were processed

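Cleared lysates and pS6 immunoprecipitates were amplified with a SMARTer kit and sequenced by the authors on a HiSeq2500. Their notes name STAR and mm10, and the methods name TopHat and Cufflinks. The deposited values carry the name FPKM, but each column sums to 1000000, so the authors' values were taken as TPM. Depth is unknown. Symbols turned into dates (26) were dropped. Genes with at least 1 TPM in at least 2 libraries (14365) were fitted with limma 3.58.1 in R 4.3.3 on log2(TPM + 1), with 4 group means, a trend of variance with level, and Benjamini-Hochberg adjustment at 0.05. The code was tested on simulated data. IP and input of 1 number share a pool per the file headers. Over genes, the deviations of the paired libraries gave r = −0.0457 (RS) and −0.0637 (naive). Median-of-ratios scaling, a pseudocount of 0.1, no filter, a block, a correction for transcript length and GC content (14239 genes), and leaving out each library were tried. The block was the pool for IP over input and the interaction, and the replicate number for RS over naive. Lengths are those of the longest GENCODE transcript, protein-coding and listed in RefSeq where there was one. Gene starts and overlaps were also taken from GENCODE. Per comparison, up to 8 members called in each direction with the largest changes, the 5 highest and 3 lowest in level and the Mrps18 paralogs were named, with other genes chosen after their values were seen. Members and lists were chosen with earlier results of these data known.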

Additional observations from a re-analysis of the deposited data

Results flagged for a closer look

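For 10 of the named members the ratio of IP over input differed between RS and naive mice by the interaction term of limma, with positive values in each case. The log2 interactions were 0.68 for Mrpl33, 0.59 for Mrps21, 0.55 for Mrps36, 0.54 for Mrpl53, 0.53 for Mrpl20, 0.49 for Mrps16, 0.49 for Mrps33, 0.46 for Mrps6, 0.35 for Mrpl30 and 0.27 for Mrpl12. Their sign was positive under every alternative run. None of the 10 kept its call with the pool as a block, where the smallest and largest adjusted p were 0.0548 and 0.0978, or without any 1 of the IP or naive input libraries. With length and GC content removed 2 kept it, and without RS input replicate 1 it was kept by 6. Groups of 2 pools are too small for a test of single samples that stand apart.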

How the results depend on the processing

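The depth of the libraries is unknown, and each value rests on 2 pools. Leaving out 1 library leaves a group with a lone sample, assumed to vary like the other groups. No call was made for RS over naive in IP under any of the 14 alternatives. A cause of the changes below was not tested.

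Leaving out each library gave 50 to 53 members higher and 8 to 10 lower for IP over input in RS mice (median 0.47 to 0.52), and 39 to 46 higher and 7 to 11 lower in naive mice (median 0.26 to 0.28). RS over naive had medians of −0.07 to −0.03 in IP, and 0 to 1 higher and 25 to 47 lower in input (median −0.31 to −0.21). The interaction had 0 to 24 higher (median 0.20 to 0.27). Uncalled genes near 0 changed sign: Mrpl1 (−0.15 to 0.01 in RS IP over input, −0.12 to 0.16 in naive, interaction −0.22 to 0.06), Mrpl28 (−0.06 to 0.13 for RS over naive in input, interaction −0.10 to 0.09), Mrps18a (−0.04 to 0.06) and Mrps31 (−0.07 to 0.00) for RS over naive in IP, and Mrps18b (−0.01 to 0.23 in RS IP over input).

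With median-of-ratios scaling, lower calls for IP over input were 4 in RS mice (median 1.02) and 3 in naive mice (median 0.66), RS over naive had medians of −0.06 in IP and −0.38 in input (0 higher), and the interaction had 23 higher (median 0.36). Among the named members, signs turned for Mrpl38 (0.12), Mrpl9 (0.20), Mrps30 (0.23), Mrps31 (0.28) and Mrpl1 (0.41) in RS IP over input, for Mrps31 (0.08) and Mrps18b (0.19) in naive IP over input, for Mrps18a in IP (−0.01), Mrpl28 in input (−0.11), and for the interactions of Mrpl28 (0.12) and Mrpl1 (0.03). Over all 78 members, 4 calls turned in RS and 4 in naive IP over input, including Mrpl10 in RS mice (0.28) and Mrpl49 (0.11), Mrps22 (0.15) and Mrps5 (0.16) in naive mice.

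With length and GC content removed, medians were 0.29 in RS (15 lower, or 14 with the replicate block) and 0.17 in naive IP over input, −0.17 for RS over naive in input (3 higher and 28 lower, or 2 and 27 with the block) and 0.13 for the interaction (4 higher, or 0 with the block). Among the named members, signs turned, with and without the block, for Mrps30 (0.27), Mrpl28 (−0.11), Mrpl1 (0.48), Mrps18a (−0.13) and Mrps18b (−0.26) in RS IP over input, for Mrpl19 (0.13) and Mrps18a (−0.19) in naive IP over input, for Mrpl42 (0.00 in IP, 0.01 in input), Mrpl19 in input (−0.12), and for the interactions of Mrpl42 (−0.00), Mrpl18 (−0.02), Mrpl1 (0.10) and Mrps18c (−0.10). Over all 78 members, the sign turned for 6 of 62 calls in RS and 8 of 57 in naive IP over input, 2 of 46 for RS over naive in input and 1 of 15 interactions (Mrpl14, −0.01).

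The interaction had 2 higher without a filter on low values and 0 with the replicate block, the pairing of IP and input by pool. For RS over naive the block was the replicate number, which joins pools of different mice. The block moved no other count of calls by over 1.5 times. Over the named members in all comparisons it turned no sign, 12 calls were lost (Mrpl18 in input among them, adjusted p = 0.073) and 1 was gained, and with a pseudocount of 0.1 TPM 1 call was lost.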
